A study of Danio rerio with 24 samples.

Results

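The livers of male zebrafish were compared between progeny and parents of the lineage in which the parents had eaten a high arachidonic acid (ARA) diet. All fish were wildtype AB zebrafish (*Danio rerio*). The F0 high ARA parents began the high ARA diet at 27 days post fertilization (DPF), were mated at 97 DPF and were sampled at 154 to 156 DPF. Their F1 progeny, called F1 high ARA after the parental diet, ate the control diet (low arachidonic acid in the labels) and were sampled at 140 to 142 DPF. F0 control and F1 control fish had the same schedule with the control diet in both generations, and served here as the comparison lineage. Each library was made from the pooled livers of 6 males of one tank, and the tank was the replicate, with 6 libraries per group. The comparison used 12 of the 24 libraries, chosen by their generation and diet labels, and the control lineage supplied the other 12. Because the 2 groups differed in generation, own diet, age at sampling and sampling days, these factors cannot be told apart within the lineage. The control lineage shared the generation, age and sampling difference without a change of diet, and the difference between lineages was tested too.

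ARA is an n-6 polyunsaturated fatty acid that is held in membrane phospholipids, is released by phospholipases and is the precursor of eicosanoids such as prostaglandins. The liver takes up dietary fat, elongates and desaturates fatty acids, packs triglyceride into lipoproteins and makes most plasma proteins. Secretion of those proteins rests on ribosome supply. Ribosomes are assembled in the nucleolus, where RNA polymerase I copies the rDNA and a large set of nucleolar factors cleaves, modifies and folds the pre-rRNA.

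The 12 libraries held between 5973529 and 11800367 counts assigned to Ensembl genes, with a median of 7262293 in F0 high ARA and 9857580 in F1 high ARA. No library pair was a duplicate. Hepatocyte markers were abundant in every library: the 12 markers summed to 117906 to 155615 CPM (counts per 1000000 assigned), and testis germ cell markers to 2.34 to 8.64 CPM. Markers of gut epithelium stood apart. The F0 high ARA replicates 13 to 16 carried them at high levels, whereas F0 replicates 17 and 18 and all F1 high ARA libraries did not. *vil1* (villin, of the brush border) read 20.0 to 74.0 CPM in F0 replicates 13 to 16, 0.129 to 1.59 CPM in F0 replicates 17 and 18, and 0.487 to 4.12 CPM in F1. Of 113 DEGs chosen by the rule for named genes that could be fitted without these 4 libraries, 109 had the same direction. Of the 113, 32 were still called, in a fit with 2 F0 libraries that are part of the full comparison. The decreases *mep1ba*, *clca1*, *ace* and *aoc1* could not be fitted there and are not among the 113. Directions turned for *plac8.1*, *cd36*, *aldh1a2* and *mbl2*. In pooled tissue, fewer cells of a type and less RNA per cell cannot be told apart.

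A differentially expressed gene (DEG) was one with an adjusted p under 0.05 (edgeR quasi-likelihood test, Benjamini-Hochberg) and the same direction in the Ensembl and the RefSeq counts. Of 11302 genes tested in both annotations, 1806 (16%) were DEGs. F1 livers had 935 DEGs at a higher level (8.27%) and 871 at a lower level (7.71%). These 2 shares are the background against which each group of genes below is read. The median log2 fold change over all genes tested was 0.014, which the scaling of libraries by trimmed means (TMM) itself holds near 0, and with library totals it was 0.056, with 837 higher and 596 lower. Large changes were more often decreases: 301 of the lower DEGs fell by at least 1 on the log2 scale, against 152 of the higher DEGs that rose by as much. Every F1 library lay above every F0 library for 430 of the higher DEGs, and below for 318 of the lower ones. Over all genes tested, 4.12% were separated in this way upwards and 3.11% downwards.

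**Figure D1:**
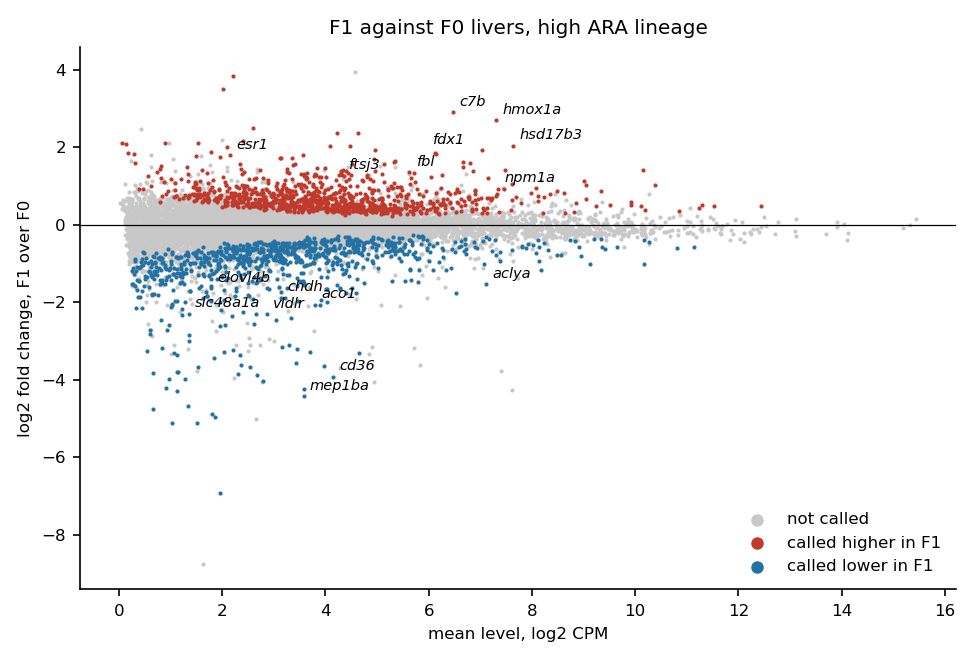
Log2 fold change of F1 over F0 high ARA livers against the mean level in log2 CPM, one point per gene tested in both annotations. The 935 genes called higher are red and the 871 called lower are blue, of which 152 and 301 lie at least 1 from 0.

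The genes with the smallest p among the increases had tight values in both groups. *fdx1*, a mitochondrial ferredoxin that hands electrons to cytochrome P450 enzymes, lay at chromosome 9, 29709950 to 29724707 in GRCz10. Its level (lowest, median and highest library) was 47.2, 54.7 and 68.6 CPM in F0 and 156, 208 and 275 CPM in F1. The groups did not overlap, and the log2 fold change was 1.92 with a standard error (SE) of 0.16 (adjusted p = 3.09e-05). *fdx1* overlaps *arhgap20*, and reads in the shared stretch were left out of both. *ftsj3*, a nucleolar rRNA methyltransferase, read 9.37, 11.6 and 13.5 CPM in F0 and 24.9, 28.2 and 32.1 CPM in F1, again without overlap (1.28 ± 0.11, adjusted p = 3.09e-05). *fbl*, the fibrillarin that methylates rRNA with box C/D snoRNAs, read 23.7, 26.6 and 32.3 CPM in F0 and 50.6, 67.5 and 96.6 CPM in F1 (1.37 ± 0.15, adjusted p = 0.000161). *npm1a*, a nucleophosmin of the granular nucleolus, read 102, 111 and 122 CPM in F0 and 188, 203 and 272 CPM in F1 (0.93 ± 0.11, adjusted p = 0.000177). In each of these 4 genes the lowest F1 pool exceeded the highest F0 pool.

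The other 6 increases of this rank were of varied function. *hsd17b3*, whose enzyme makes testosterone from androstenedione, had the largest fold among them, at 41.7, 83.4 and 102 CPM in F0 and 190.1, 318 and 485 CPM in F1 (2.04 ± 0.25, adjusted p = 0.000473). *dgkza*, a diacylglycerol kinase, read 6.08, 6.64 and 8.63 CPM in F0 and 14.2, 18.5 and 20.7 CPM in F1 (1.34 ± 0.12, adjusted p = 3.73e-05). *prmt1*, the main arginine methyltransferase, read 25.2, 31.5 and 33 CPM in F0 and 55.9, 63 and 104 CPM in F1 (1.22 ± 0.15, adjusted p = 0.000408). *mars1* (methionyl-tRNA synthetase; 1.18 ± 0.15), *ttc27* (1.54 ± 0.14) and the channel-like *tmc5* (1.23 ± 0.16) completed the 10. All 10 were separated between groups, with an exact two-sided permutation p of 0.00216, the smallest that 6 against 6 libraries can give. The 10 were chosen by p in the same libraries, so neither the separation nor this permutation p is separate support.

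The 10 decreases with the smallest p were also of varied function. *chdh*, choline dehydrogenase, which starts the oxidation of choline to betaine, lay at chromosome 8, 53493401 to 53509022 and read 9.62, 13.4 and 20.1 CPM in F0 and 3.2, 3.7 and 4.8 CPM in F1 (-1.87 ± 0.17, adjusted p = 3.58e-05). *aco1*, the cytosolic aconitase that also acts as an iron regulatory protein, read 18.2, 21.7 and 27.7 CPM in F0 and 3.36, 5.29 and 8.4 CPM in F1 (-2.06 ± 0.19, adjusted p = 3.94e-05). *slc48a1a*, a heme transporter, read 3.35, 3.84 and 5.7 CPM in F0 and 0.534, 0.77 and 1.46 CPM in F1 (-2.29 ± 0.25, adjusted p = 0.000158). *vldlr*, a receptor for triglyceride-rich lipoproteins, lay at chromosome 10, 15296893 to 15347025 and read 8.15, 12.2 and 16.2 CPM in F0 and 1.14, 2.56 and 3.46 CPM in F1 (-2.29 ± 0.25, adjusted p = 0.000158). These 4 genes showed no overlap between generations.

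The remaining 6 of the 10 decreases also separated the groups. They were the transcription factor *nfia* (-1.84 ± 0.17), the fatty aldehyde dehydrogenase *aldh3a2b* (-1.66 ± 0.18), the pseudokinase *nrbp2b* (-1.24 ± 0.13), the insulin-like growth factor binding protein *igfbp2b* (-1.1 ± 0.11), the guanine nucleotide exchange factor *farp1* (-1.06 ± 0.12) and the ubiquitin ligase *nedd4l* (-1.02 ± 0.10). *igfbp2b* read 39.3, 41.2 and 53.9 CPM in F0 and 16.9, 20.4 and 24.2 CPM in F1. All 20 genes of these paragraphs kept their call in each of the 26 alternatives run, including the fit without F0 replicates 13 to 16. They were chosen by p in the same libraries, which the alternatives share, so this is not separate support.

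Among DEGs with a mean of at least 5 CPM, the increases with the largest folds were transporters, heme oxygenase and a complement gene. *hmox1a*, heme oxygenase, read 15.7, 42.6 and 68.9 CPM in F0 and 88.7, 241 and 577 CPM in F1 (2.7 ± 0.52, adjusted p = 0.00662) with no overlap. *c7b*, a component of the complement membrane attack complex, read 5.02, 18.2 and 51.1 CPM in F0 and 39.6, 142 and 352 CPM in F1 (2.9 ± 0.63, adjusted p = 0.0114), and its groups overlapped. *slc16a4* (monocarboxylate transporter family; 2.37 ± 0.37), *slc47a2.1* (multidrug and toxin exporter family; 2.37 ± 0.49) and the dicarboxylate transporter *slc13a3* (2.51 ± 0.61) followed. The calls of *hmox1a*, *c7b*, *slc16a4* and *slc13a3* were lost without F0 replicates 13 to 16 (adjusted p = 0.203, 0.0602, 0.114 and 0.19), where the fold changes were 2.16, 4.09, 2.16 and 2.02.

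The decreases with the largest folds at this level were high in the F0 libraries with gut markers and low in F0 replicates 17 and 18. *mep1ba*, a meprin metalloprotease of the brush border, read 0.129, 15 and 82.5 CPM in F0 and 0, 1.13 and 2.31 CPM in F1 (-4.42 ± 1.26, adjusted p = 0.0361). *cd36*, a fatty acid and lipoprotein scavenger receptor, read 0.129, 21.2 and 79.7 CPM in F0 and 0.36, 1.41 and 5.93 CPM in F1 (-3.92 ± 1.22, adjusted p = 0.0484). In both genes the lowest F0 library was below the F1 median. *plac8.1* (-4.24 ± 1.21), *clca1* (-3.88 ± 1.13) and *ace* (-3.67 ± 1.02) had the same order. The exact two-sided permutation p on log2(CPM + 0.5) was 0.0563 to 0.13 for these 5 genes, so each missed 0.05 in that test. Without F0 replicates 13 to 16 *mep1ba*, *clca1* and *ace* were below the count minimum, and *cd36* and *plac8.1* had fold changes of 3.06 and 1.59, in the other direction and not called (adjusted p = 0.273 and 0.424).

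**Figure D2:**
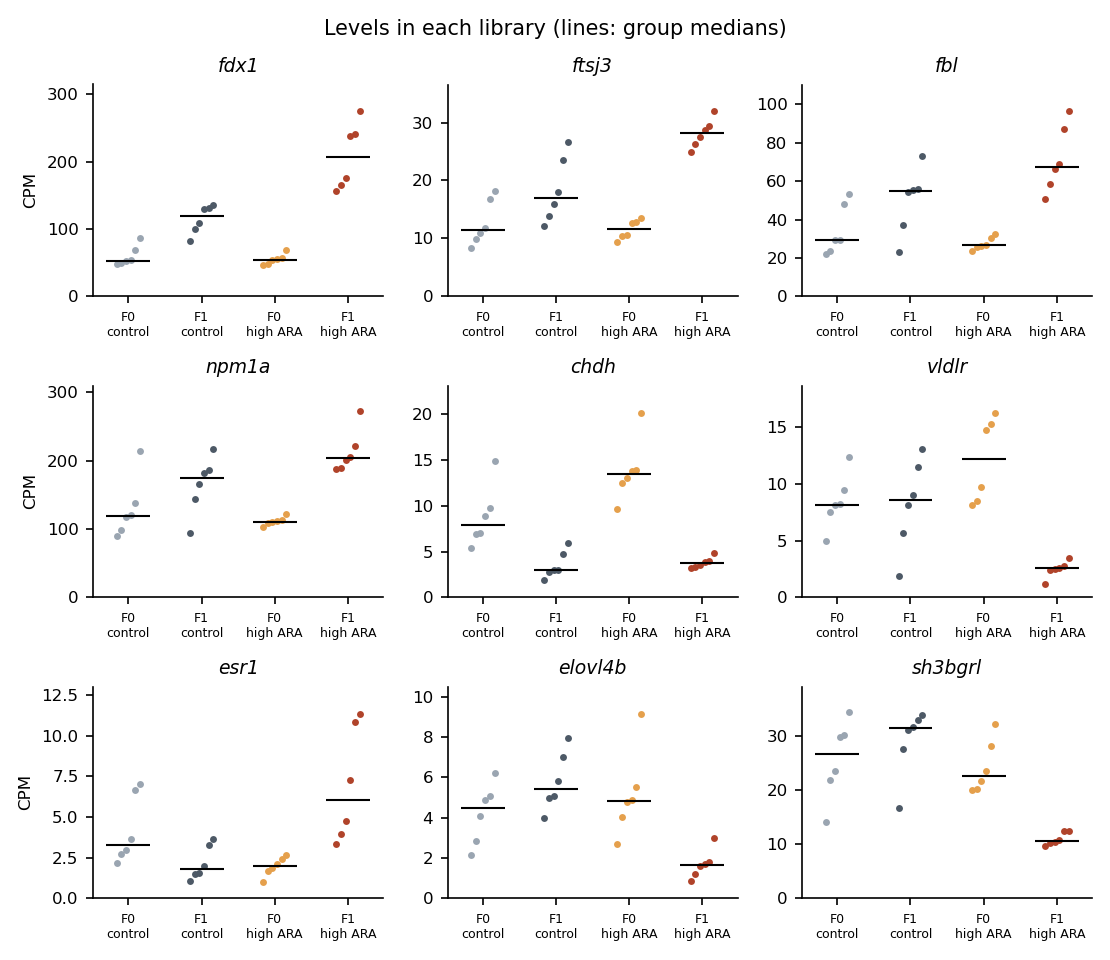
Level in CPM of 9 genes in each library of the 4 groups, with a line at the group median. F1 high ARA lies above F0 high ARA for *fdx1*, *ftsj3*, *fbl*, *npm1a* and *esr1*, and below it for *chdh*, *vldlr* and *sh3bgrl*, with no overlap, whereas the *elovl4b* values of F0 and F1 high ARA overlap.

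Ribosome biogenesis was the group with the largest share of DEGs. Of 122 factors tested, 71 (58.2%) rose in F1 high ARA livers and 1 fell, against 8.27% and 7.71% of all genes. The median log2 fold change was 0.68, with quartiles of 0.41 and 0.93. Leaving out any one library gave 57 to 81 increases. Without F0 replicates 13 to 16 the median was 0.64 and 9 were called higher, where 58 of 11389 genes were called higher over all genes. At an unadjusted p under 0.05, 58 of the 122 were higher there and 0 lower, against 1004 and 1031 of all genes. The number of calls thus moved more than the median, in a fit with 2 F0 libraries. In the control lineage the median was 0.23 and 0 of 122 were called by edgeR, with 23 at an unadjusted p under 0.05 and 1 called by DESeq2.

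The members covered each stage of ribosome assembly. Box H/ACA snoRNPs, which pseudouridylate rRNA, contributed *dkc1*, *gar1* and *nhp2*. *dkc1* (dyskerin) read 8.17, 11.5 and 16.1 CPM in F0 and 15.9, 22.8 and 62.9 CPM in F1 (1.58 ± 0.38, adjusted p = 0.0158), and 1 F1 library fell within the F0 range. The C/D snoRNP core protein *nop58* read 13.5, 18.1 and 21.5 CPM in F0 and 23.2, 39.8 and 93.3 CPM in F1 (1.58 ± 0.33, adjusted p = 0.00823) with no overlap. The small subunit processome had *heatr1* (0.97), *wdr36* (1.23), *nol6* (1.22), *mphosph10* (0.63) and *bms1* (0.82) among its increases. The large subunit pathway had *rrs1* (1.47), *nle1* (1.45), *noc2l* (1.32), *gnl3* (1.30), *nop2* (1.29), *pes* (0.93) and *bop1* (0.81). Export and late factors such as *nmd3* (0.97), *ltv1* (0.81) and *eif6* (0.85) rose too. The single decrease was *nol10*, which read 14, 22.2 and 48.7 CPM in F0 and 7.11, 13.2 and 17.9 CPM in F1 (-1.03 ± 0.29, adjusted p = 0.0319), and its call was lost in 11 of 26 alternatives, with a fold change of -0.59 (adjusted p = 0.349) without F0 replicates 13 to 16.

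The RNA polymerases that make rRNA and tRNA moved the same way with fewer calls. Of 36 subunits and factors of RNA polymerases I and III tested, 11 rose and 1 fell (median 0.40). The increases included *polr1a* and *polr1b*, the 2 largest subunits of polymerase I (0.75 and 0.78, the first also counted above), and *rrn3*, its initiation factor (0.74). *brf1a*, which places polymerase III on tRNA genes, read 4.03, 5.88 and 10.9 CPM in F0 and 10.5, 17.3 and 20.9 CPM in F1 (1.32 ± 0.24, adjusted p = 0.0033). *polr1d*, shared by both polymerases, read 1.76, 1.92 and 3.13 CPM in F0 and 2.1, 4.43 and 7.04 CPM in F1 (1.08 ± 0.27, adjusted p = 0.0156), with overlap. The decrease was *polr3glb* (-0.62 ± 0.20), whose paralog *polr3gla* rose (0.95), and the call of *polr3glb* was lost in 19 of 26 alternatives. The 11 became 7 without F0 replicate 13, F0 replicate 16, F1 replicate 15 or F1 replicate 17, each left out alone, and 0 without F0 replicates 13 to 16 (median 0.32).

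The proteins of the finished cytosolic ribosome did not share this direction. Of 79 cytosolic ribosomal proteins tested, 1 was called higher and 2 lower, and the median was -0.16. At an unadjusted p under 0.05, 20 were lower and 2 higher, against 1828 and 1943 of 11302 over all genes. With the enterocyte marker score as a covariate 9 were lower (1423 over all genes), with a median of -0.18. Without the F0 libraries with gut markers 2 were lower (1031 of 11389 over all genes), with a median of -0.19. Other alternatives gave more. With an offset for gene length 35 were lower and 2 higher (1806 and 1874 over all genes), with a median of -0.21. With library totals 32 were lower and 2 higher (1570 and 2065 over all genes), with a median of -0.13. These 2 fits called 3 and 6 lower and 1 higher each, and DESeq2 called 5 lower and 1 higher. The called increase was *rpl7l1* (0.86 ± 0.22), a paralog of *rpl7* whose yeast relative is an assembly factor. *rpl11* read 665, 722 and 768 CPM in F0 and 447, 582 and 639.6 CPM in F1 (-0.36 ± 0.10, adjusted p = 0.0233). *rps23* read 607, 657 and 722 CPM in F0 and 386, 545 and 614 CPM in F1 (-0.35 ± 0.11, adjusted p = 0.0453), and its call was lost in 15 of 26 alternatives. The median difference between lineages was -0.18 for this list and 0.45 for ribosome biogenesis, but 0 members of either list were called in that test (edgeR or DESeq2). At an unadjusted p under 0.05, 3 of 79 ribosomal proteins were lower and 1 higher. Of 122 biogenesis factors 43 were higher and 2 lower. The count over all genes at that threshold is not given here, so these counts have no background. The lists were chosen with earlier results of these data known.

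Other steps of gene expression had smaller medians than the biogenesis factors. For pre-mRNA splicing, 25 of 128 tested rose and 0 fell (median 0.21), led by *hnrnpabb* (1.11 ± 0.20) and the helicase *ddx5*. *ddx5* read 211, 254 and 288 CPM in F0 and 325, 449 and 579 CPM in F1 (0.87 ± 0.14, adjusted p = 0.00166) with no overlap. Among 22 aminoacyl-tRNA synthetases, which charge tRNAs with amino acids, 7 rose and 0 fell (median 0.36). *qars1* read 6.2, 11.137 and 16.3 CPM in F0 and 19.5, 27.5 and 39.6 CPM in F1 (1.34 ± 0.22, adjusted p = 0.0019). For translation initiation, 13 of 59 rose and 3 fell (median 0.10). The cap-binding *eif4e1c* (1.1 ± 0.28) and *eif1b* (0.91 ± 0.15) rose most, and *pabpc1b* (-0.93 ± 0.19), *eif4g3a* (-0.71 ± 0.13) and *eif3hb* (-0.64) fell. Of 13 elongation and termination factors, *etf1b* rose (0.83 ± 0.18) and *eef1db* fell (-0.36 ± 0.12, with the call lost in 14 of 26 alternatives), and the median was -0.11 with 6 of 13 above 0. Without F0 replicates 13 to 16 the medians of the splicing, synthetase and initiation lists were 0.21, 0.42 and 0.089, with 0, 3 and 0 calls upwards.

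Mitochondrial ribosomal proteins, in contrast to the cytosolic ones, were called only upwards. Of 75 tested, 12 rose, with a median of 0.23. *mrps31* read 9.13, 10.8 and 16.3 CPM in F0 and 15.7, 20.4 and 31.4 CPM in F1 (0.94 ± 0.18, adjusted p = 0.00455) and *mrps26* 5.38, 7.91 and 8.64 CPM in F0 and 9.57, 12 and 14.4 CPM in F1 (0.71 ± 0.15, adjusted p = 0.00649). The count was 6 without F0 replicate 15, 7 without F1 replicate 17 and 7 when library totals replaced TMM factors. The oxidative phosphorylation complexes did not follow: of 92 subunits, 2 rose (*atp5mc3a*, 0.33 ± 0.09, lost in 13 of 26 alternatives, and *atp5mf*, 0.32 ± 0.093) and 1 fell (*ndufa2*, -0.39 ± 0.10), with a median of 0.013.

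Purine synthesis supplies the nucleotides for rRNA. Of 22 genes tested, 9 rose and 1 fell, with a median of 0.26. *ppat*, the first committed enzyme of de novo synthesis, rose by 0.94, and *adsl* by 0.68. *hprt1*, the salvage enzyme for hypoxanthine and guanine, read 69.2, 86.6 and 107 CPM in F0 and 114, 186 and 306 CPM in F1 (1.2 ± 0.23, adjusted p = 0.0041). *impdh2*, which commits inosine monophosphate to guanine nucleotides, read 10.1, 11.104 and 14.4 CPM in F0 and 14.4, 20.3 and 48.6 CPM in F1 (1.16 ± 0.30, adjusted p = 0.0206). *adss2*, on the adenine branch, read 1.67, 1.98 and 2.69 CPM in F0 and 0.201, 0.644 and 1.1 CPM in F1 (-1.71 ± 0.32, adjusted p = 0.0036), while its paralog *adssl* rose (0.38). Leaving out one library gave 8 to 9 increases, a fit with 1 surrogate variable as covariate gave 5, one with the enterocyte marker score as covariate 6, and the fit without F0 replicates 13 to 16 gave 1 (median 0.39). Among 19 polyamine genes tested, 5 rose and 4 fell. *azin1b*, an antizyme inhibitor, read 272, 341 and 429 CPM in F0 and 458, 724 and 953 CPM in F1 (1.04 ± 0.17, adjusted p = 0.00147), the spermidine synthase *srm* rose by 0.69, the spermidine acetyltransferase *sat1b* by 1.34, and the antizyme *oaz2a* read 356, 472 and 505 CPM in F0 and 209, 273 and 329 CPM in F1 (-0.77 ± 0.12, adjusted p = 0.00158). *aoc1*, a diamine oxidase, read 0, 8.46 and 21.5 CPM in F0 and 0.18, 0.801 and 2.01 CPM in F1 (-3.23 ± 0.97, adjusted p = 0.0427). Its groups overlapped, and its call was lost in 15 of the 25 alternatives that could be fitted. In the fit without F0 replicates 13 to 16, 0 polyamine genes rose and 3 fell, and the decreases were 2 without F0 replicate 13 or F1 replicate 13, 14, 15, 16 or 18.

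The lists of protein folding, secretion and degradation genes differed in their share of DEGs, and these counts depended on single libraries. Of 42 coat and cargo genes of the secretory pathway, 7 rose (16.7%, above the 8.27% of all genes) and 0 fell (median 0.23). They included the COPI subunits *copg2*, *copb1*, *copb2* and *copz1* (0.40 to 0.45), *tmed5* (0.91 ± 0.21) and *sec16b* (0.49 ± 0.14, and 0.25 without F0 replicates 13 to 16). Of 56 endoplasmic reticulum chaperones and unfolded protein response genes, 4 rose (7.14%, below the 8.27% of all genes): *sdf2* (0.81 ± 0.22), *srp54* (0.43 ± 0.12), *srp72* (0.41) and *ssr2* (0.32). The last 3 act in targeting and translocation rather than in stress signalling. Of 26 heat shock proteins, 4 rose (15.4%), among them *hspa4a* (1.34 ± 0.37, with the call lost in 12 of 26 alternatives) and the mitochondrial *hspa9*, which read 184, 226 and 249 CPM in F0 and 273, 326 and 470.3 CPM in F1 (0.63 ± 0.14, adjusted p = 0.00873). The 7 tested subunits of the CCT chaperonin had 0 calls by edgeR or DESeq2 and 0 unadjusted p under 0.05. Of 52 proteasome genes, 9 rose (17.3%), led by *psmd11b* (1.04 ± 0.28) and *psme3* (1.03 ± 0.20), and *psma6l* fell (-0.61 ± 0.19, with the call lost in 14 of 26 alternatives). With one library left out the increases ranged from 3 to 8 for the coats, 2 to 7 for the endoplasmic reticulum list, 1 to 6 for the heat shock proteins and 2 to 10 for the proteasome. The coats were at 3 or 4 without F0 replicate 13, 14, 16, 17 or 18 or F1 replicate 16 or 17, and the proteasome was at 2 to 4 without any one of the same libraries. The endoplasmic reticulum list was at 2 without F0 replicate 13 or 16 or F1 replicate 17 and at 7 without F1 replicate 15. The heat shock proteins were at 1 or 2 without F0 replicate 13, 16 or 17 or F1 replicate 15 or 17. All 4 lists had 0 increases without F0 replicates 13 to 16, where their medians were 0.22, 0.23, 0.24 and 0.24. In that fit 58 of 11389 genes were called higher over all genes.

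**Figure D3:**
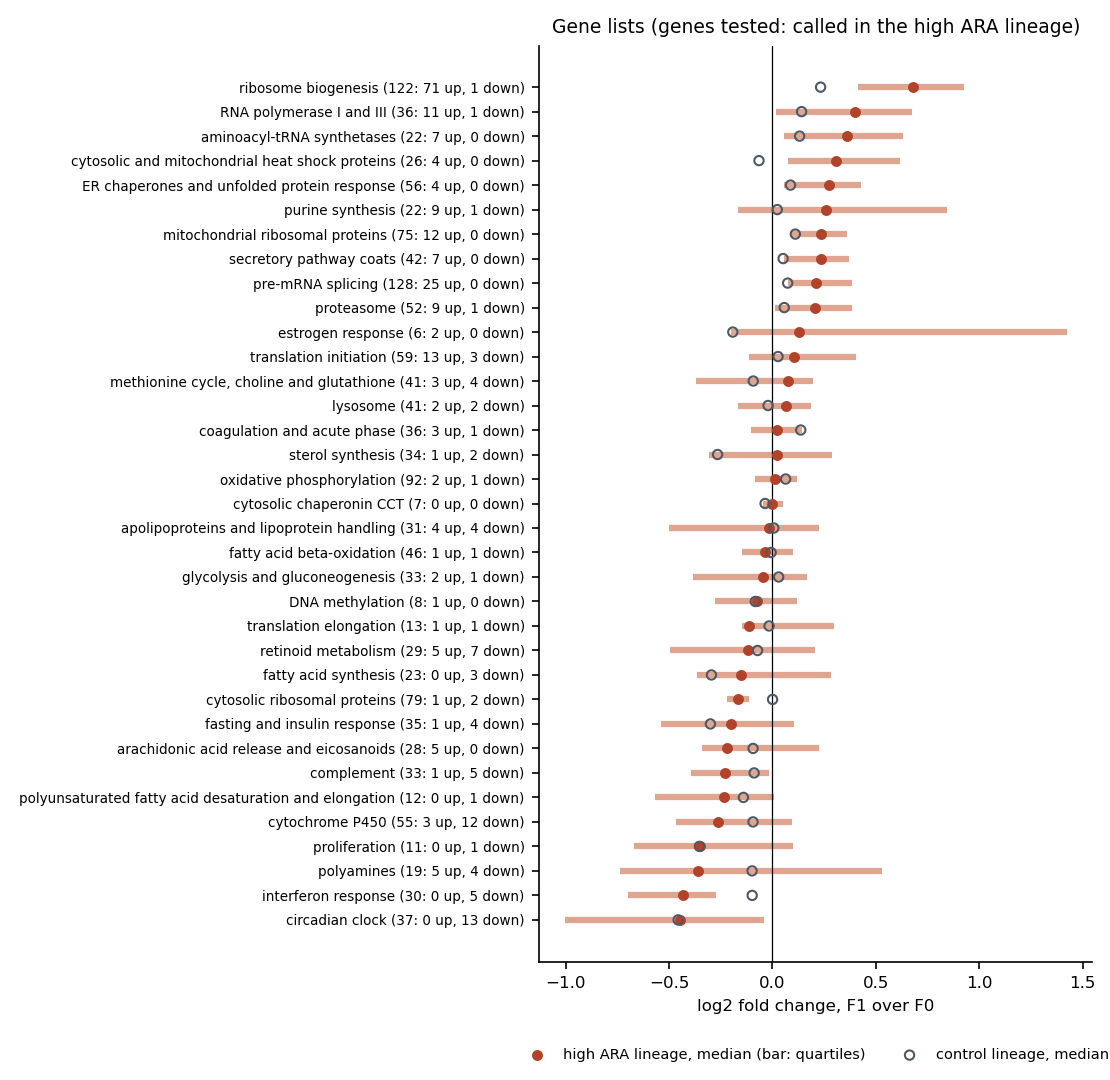
Median log2 fold change of F1 over F0 for 35 gene lists, with filled points and quartile bars for the high ARA lineage and open points for the control lineage. Ribosome biogenesis stands at 0.68 against 0.23, and the circadian clock at about -0.45 in both lineages.

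The DEGs of fatty acid synthesis fell. Of 23 genes tested, 0 rose and 3 fell (median -0.15). *aclya*, ATP citrate lyase, which makes cytosolic acetyl-CoA, read 92.6, 139 and 423 CPM in F0 and 58.1, 64.9 and 96.6 CPM in F1 (-1.53 ± 0.35, adjusted p = 0.013), and its groups overlapped. *dgat2*, which closes triglyceride synthesis, read 75, 89.6 and 123 CPM in F0 and 28.5, 41.7 and 55 CPM in F1 (-1.17 ± 0.16, adjusted p = 0.000633) without overlap. *mid1ip1l*, whose mammalian relative activates acetyl-CoA carboxylase, fell by 0.60. *fasn* (0.33 ± 0.40, adjusted p = 0.598), *acaca* (0.60 ± 0.48, adjusted p = 0.409) and their regulator *srebf1* (-0.22 ± 0.17, adjusted p = 0.371) were not called. *fasn* spread from 52.8 to 239.9 CPM among F1 libraries alone. The control lineage had 0 of 22 genes of this list called higher and 2 lower, with a median of -0.30. There 1.23% of all genes were called lower. DESeq2 called 6 of the list lower in the control lineage and 3 in the high ARA lineage. In the control lineage *fasn*, *acaca* and *srebf1* differed by -1.74, -0.99 and -1.26 (adjusted p = 0.0765, 0.258 and 0.0136), and the lineage differences were 2.07 ± 0.63, adjusted p = 0.197, 1.59 ± 0.67, adjusted p = 0.328 and 1.03 ± 0.27, adjusted p = 0.118.

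Of 12 desaturases and elongases of polyunsaturated fatty acids, the single DEG was *elovl4b*, which builds very long chains. It lay at chromosome 23, 40517740 to 40545677 and read 2.7, 4.81 and 9.14 CPM in F0 and 0.839, 1.66 and 2.97 CPM in F1 (-1.64 ± 0.31, adjusted p = 0.0038). F0 replicate 18 (2.70 CPM) lay below the highest F1 library. Of 28 genes of ARA release and eicosanoid synthesis, 5 rose and 0 fell, while the median was -0.22. Of these, *ptges3a* and *ptges3b* encode p23, an Hsp90 cochaperone that also has prostaglandin E synthase activity. *ptges3a* read 20.6, 25.6 and 33.9 CPM in F0 and 36.5, 54.6 and 65.2 CPM in F1 (0.95 ± 0.15, adjusted p = 0.0013), while *ptges3b* (0.84) lost its call in 17 of 26 alternatives. The others were the phospholipases *pla2g12a* (0.48) and *pla2g15* (0.53) and the prostaglandin transporter *slco2a1* (0.71). The count was 2 to 4 in each of the 12 fits with one library left out, and 0 without F0 replicates 13 to 16 (median -0.019). *dagla*, which forms the endocannabinoid 2-arachidonoylglycerol, did not pass (-0.29 ± 0.22, adjusted p = 0.373).

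The DEGs among lipid uptake and export genes lay in both directions. Of 31 apolipoprotein and lipoprotein genes, 4 rose and 4 fell (12.9% each), against 8.27% and 7.71% of all genes. Besides *vldlr*, the high density lipoprotein receptor *scarb1* read 2.6, 6.63 and 19.2 CPM in F0 and 1.53, 2.33 and 4.02 CPM in F1 (-1.84 ± 0.52, adjusted p = 0.0307), with higher F0 values in the libraries with gut markers and a log2 fold change that was not called without them (adjusted p = 0.878). *lcat*, which esterifies plasma cholesterol, fell by 0.73 and *apoeb* by 0.61. *apof* read 33, 63.3 and 67.2 CPM in F0 and 83.2, 166 and 254 CPM in F1 (1.61 ± 0.25, adjusted p = 0.00157), and *lrp1ab* rose by 0.68 (0.32, adjusted p = 0.36, without those libraries). In that fit 0 genes of this list rose and 1 fell, where 58 rose and 116 fell of 11389 over all genes. The increases were 2 without F0 replicate 16 alone, and the decreases 2 without F0 replicate 13 or F1 replicate 16, 17 or 18. In the control lineage 3 of 32 genes of this list were called higher and 1 lower, against 0.606% and 1.23% of all genes there. Of 46 genes of fatty acid beta-oxidation, 1 rose and 1 fell in the high ARA lineage (2.17% each), below the shares over all genes. *cpt1b*, which starts mitochondrial import of fatty acids, read 191, 355 and 439 CPM in F0 and 387, 717 and 1091 CPM in F1 (1.14 ± 0.26, adjusted p = 0.0124), and the peroxisomal *ehhadh* read 243, 291 and 319 CPM in F0 and 149.7, 192 and 238 CPM in F1 (-0.60 ± 0.12, adjusted p = 0.0045). Sterol synthesis and trafficking included an increase of the mevalonate pathway enzyme *pmvk* (0.82 ± 0.17) and a decrease of the lysosomal *npc2.1* (-0.37 ± 0.083).

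Of 41 genes of the methionine cycle, choline and glutathione tested, 3 rose (7.32%) and 4 fell (9.76%), near the shares of 8.27% and 7.71% over all genes. *gldc*, the decarboxylase of the glycine cleavage system, read 34.2, 42.4 and 91.9 CPM in F0 and 101, 139.9 and 229 CPM in F1 (1.61 ± 0.27, adjusted p = 0.0025) without overlap. *prmt1* and *mtrr* (0.88) were the other increases. Besides *chdh*, the decreases were glutathione reductase *gsr*, which read 12, 17.7 and 27.7 CPM in F0 and 8.54, 10.3 and 12 CPM in F1 (-0.81 ± 0.19, adjusted p = 0.0118, and -0.28, adjusted p = 0.422 without F0 replicates 13 to 16), *aldh1l1* (-0.58) and *mat2al* (-0.55). The decreases were 2 without F0 replicate 15. *bbox1*, which ends carnitine synthesis, had a fold change of -0.10 ± 0.22, adjusted p = 0.784. *mat1a*, the liver enzyme that makes S-adenosylmethionine, read 1419.8, 2041 and 2813 CPM in F0 and 1729, 2256 and 2544 CPM in F1 (0.074 ± 0.17, adjusted p = 0.788). *cbsb*, at the entry to transsulfuration, was lower in F1 by 0.59 ± 0.20 and just missed the threshold (adjusted p = 0.0557). Of 8 DNA methylation genes, the single DEG was *tdg.1*, a thymine DNA glycosylase (0.82 ± 0.18, adjusted p = 0.00919).

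The estrogen receptor and a vitellogenin rose in these male livers. Vitellogenins are yolk precursors that estrogen induces in the fish liver. *esr1* lay at chromosome 20, 26460666 to 26484285 and read 0.978, 1.97 and 2.69 CPM in F0 and 3.32, 6.02 and 11.3 CPM in F1 (1.81 ± 0.34, adjusted p = 0.00378), with every F1 library above every F0 library. *vtg5* read 4.89, 6.21 and 18.5 CPM in F0 and 13.4, 37.6 and 57.1 CPM in F1 (2.03 ± 0.45, adjusted p = 0.0121). It overlaps other vitellogenin genes, and reads that matched several copies were left out, so its level is uncertain. These were 2 of the 6 estrogen-responsive genes that reached the count minimum. Of the 6, 3 had a fold change above 0 and 3 below, 1 of these at an unadjusted p under 0.05. The median of the 6 was 0.13, and -0.014 without F0 replicates 13 to 16. In that fit the fold changes of *esr1* and *vtg5* were 1.86 and 2.18, and neither was called (adjusted p = 0.13 and 0.15). The coactivator *ncoa3* read 32.1, 35.8 and 46.9 CPM in F0 and 27.3, 30.5 and 37.4 CPM in F1 and was not called (-0.29 ± 0.11, adjusted p = 0.0879).

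Of 29 retinoid genes tested, 5 rose (17.2%) and 7 fell (24.1%), against 8.27% and 7.71% of all genes. *bco1*, which cleaves beta-carotene to retinal, read 1.8, 5.11 and 9.22 CPM in F0 and 0.487, 1.39 and 2.11 CPM in F1 (-1.9 ± 0.42, adjusted p = 0.0098). *aldh1a2*, which makes retinoic acid, read 1.09, 4.93 and 10.4 CPM in F0 and 0.719, 1.3 and 2.31 CPM in F1 (-1.83 ± 0.54, adjusted p = 0.0357). The receptors *rxraa* (-1.76), *rxrba* (-1.19) and *rarga* (-1.0) and the oxygenases *bco1l* (-1.31) and *bco2a* (-0.76) fell. Among the increases, *rbp5*, a retinol binding protein gene, read 21, 23.4 and 32.5 CPM in F0 and 39.8, 49.9 and 65.9 CPM in F1 (1.01 ± 0.16, adjusted p = 0.00132), and *lrata*, which esterifies retinol, rose by 0.99 ± 0.28, with *rdh10b* (0.83), *dhrs3b* (0.71) and *stra6l* (0.33). *bco1* and *aldh1a2* were also high in F0 libraries with gut markers. Without these 4 libraries 0 retinoid genes rose and 1 fell, where 58 rose and 116 fell of 11389 over all genes. There *bco1* had a fold change of -0.71 (adjusted p = 0.469), and *aldh1a2* had one of 0.18 (adjusted p = 0.88). With one library left out 2 to 5 rose and 4 to 7 fell, with 2 or 3 increases without F0 replicate 13, 14, 15 or 16 or F1 replicate 15 or 18, and 4 decreases without F0 replicate 13.

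Of 55 cytochrome P450 genes tested, 12 fell and 3 rose, with a median of -0.27. *cyp3c3* (-1.71 ± 0.49) and *cyp46a1.1* (-1.61 ± 0.47) had the largest decreases and were both high in the libraries with gut markers, without which they differed by -0.42 and -0.30 (adjusted p = 0.665 and 0.801). The dioxin-inducible *cyp1a* fell by 0.58 and *cyp27a2* by 0.73. *cyp2k22* read 365, 467 and 600.0 CPM in F0 and 505, 859.8 and 1045 CPM in F1 (0.86 ± 0.18, adjusted p = 0.00563), and *cyp2x8* rose by 0.61 ± 0.18. P450 paralogs are similar in sequence, and reads that matched several of them were left out. The 12 decreases became 6 or 7 when F0 replicate 15 or F1 replicate 14, 15, 17 or 18 was left out, and 1 without F0 replicates 13 to 16 (median -0.26).

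The DEGs among clock genes were lower in F1. The core clock is a daily loop in which Clock and Bmal proteins switch on the *per* and *cry* repressors and the *nr1d1*, *tef* and *dbp* outputs. Of 37 clock genes tested, 13 fell and 0 rose (median -0.45). *cry2* read 9.4, 14.8 and 24.1 CPM in F0 and 4.52, 5.31 and 6.75 CPM in F1 (-1.58 ± 0.21, adjusted p = 0.000621) without overlap. *bhlhe41* read 5.15, 9.22 and 27.2 CPM in F0 and 2.52, 4.15 and 5.38 CPM in F1 (-1.74 ± 0.43, adjusted p = 0.0188). Without F0 replicates 13 to 16, *cry2* had a fold change of -1.03 (adjusted p = 0.0334) and *bhlhe41* one of -0.57 (adjusted p = 0.323), in the Ensembl counts. Neither was called, since a call needs both annotations. *nr1d1* (-1.45), *tefa* (-1.42), *tefb* (-1.36), *dbpa* (-1.27), *per1a* (-1.02), *per2* (-1.01) and *per1b* (-0.89) were among the rest. The control lineage had 11 decreases and 1 increase among 36 tested, with a median of -0.46, and 0 clock genes were called in the difference between lineages (edgeR or DESeq2), with 2 higher and 1 lower at an unadjusted p under 0.05. The 13 became 10 to 13 with one library left out, 8 with the enterocyte score as a covariate and 1 without F0 replicates 13 to 16 (median -0.39, 12 at an unadjusted p under 0.05). The hour of sampling is not given in the sources used here.

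The DEGs among fasting and insulin response genes were mostly lower. All fish were deprived of food before dissection. Of 35 genes tested, 4 fell (11.4%) and 1 rose (2.86%), against 7.71% and 8.27% of all genes. *txnipb*, of the thioredoxin-interacting arrestins that restrain glucose uptake, read 0, 1.47 and 11.9 CPM in F0 and 0, 0.35 and 0.539 CPM in F1 (-3.81 ± 1.09, adjusted p = 0.0345). Its groups overlapped, and its call was lost in 13 of the 25 alternatives that could be fitted. *txnipa* (-0.67), *trib3* (-0.92) and *igfbp2b* fell, and *asns*, an asparagine synthetase of the amino acid response, rose (0.65 ± 0.17). The decreases were 1 to 5 with one library left out (1 or 2 without F0 replicate 15, 16 or 18 or F1 replicate 13, 14, 15, 16 or 18) and 1 without F0 replicates 13 to 16. The control lineage had 3 decreases and a median of -0.30. In carbohydrate metabolism 2 of 33 genes rose (6.06%) and 1 fell (3.03%), both below the shares over all genes. *pfklb*, the liver phosphofructokinase, read 86.6, 102 and 111 CPM in F0 and 49.5, 55.9 and 63.1 CPM in F1 (-0.83 ± 0.094, adjusted p = 0.000174) without overlap. The glucose-6-phosphate transporter *slc37a4a* read 93.6, 112 and 153 CPM in F0 and 133, 194 and 231 CPM in F1 (0.68 ± 0.14, adjusted p = 0.00621), and *g6pc1a.1*, its phosphatase partner, rose by 0.64 ± 0.20, with the call lost in 16 of 26 alternatives.

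The DEGs of the immune lists were mostly lower. Of 33 complement genes, 5 fell (15.2%, against 7.71% of all genes) and *c7b* rose. *c3a.6*, an abundant C3 gene, read 1195, 1478 and 2126 CPM in F0 and 630.2, 699 and 1122 CPM in F1 (-1.0 ± 0.16, adjusted p = 0.00167) without overlap, whereas *mbl2* (-2.19 ± 0.62) was high only in the F0 libraries with gut markers and had a log2 fold change of 0.0051 without them. The complement decreases were 12 without F1 replicate 13, 1 to 3 without F0 replicate 13, 15, 16 or 18 or F1 replicate 14, 15, 16, 17 or 18, and 1 without F0 replicates 13 to 16. In the control lineage 2 of 33 complement genes were called higher and 2 lower, with a median of -0.088. Of 30 interferon response genes, 5 fell (16.7%) and 0 rose in the high ARA lineage (median -0.43). *tap2a* read 4.81, 6.4 and 13.2 CPM in F0 and 2.4, 3.22 and 4.58 CPM in F1 (-1.1 ± 0.26, adjusted p = 0.0131, and -0.56, adjusted p = 0.295 without F0 replicates 13 to 16), *isg15* 7.99, 14 and 21 CPM in F0 and 5.57, 7.85 and 10.4 CPM in F1 (-0.96 ± 0.23, adjusted p = 0.0128), and *rsad2* (-0.64), *irf9* (-0.51) and *stat1a* (-0.31) completed the group. Macrophage and leukocyte markers were lower as well: 2 of 12 tested fell (16.7%), *mpeg1.1* (-0.83) and *mfap4.1* (-1.42). The median of the 12 was -0.57, and the 17 markers summed to 115.9 to 576 CPM in F0 and 100.5 to 231 CPM in F1. In the control lineage the median was -0.47 for these markers and -0.098 for the interferon genes. There edgeR called 0 of either list and DESeq2 called 1 of each lower, with 6 markers and 3 interferon genes lower at an unadjusted p under 0.05. The part of macrophages and leukocytes in the result was not tested. With F0 replicates 13 to 16 left out, 0 interferon genes were called, the interferon median was -0.17 and the macrophage median -0.15. The interferon decreases were 3 without F0 replicate 13, 15 or 17 or F1 replicate 14, 15 or 17.

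The coagulation and acute phase list had DEGs in both directions. Of 36 genes tested, 3 rose (8.33%, near the 8.27% of all genes) and 1 fell (2.78%, below the 7.71% of all genes). *hpxa*, hemopexin, which binds free heme, read 4041, 4529 and 5809 CPM in F0 and 4985, 6474 and 7668 CPM in F1 (0.48 ± 0.12, adjusted p = 0.0163, and 0.28, adjusted p = 0.44 without F0 replicates 13 to 16). *crp3* read 578, 816 and 902 CPM in F0 and 923, 1114 and 1405 CPM in F1 (0.52 ± 0.13, adjusted p = 0.0156), and *f13b*, a coagulation factor subunit, read 21.7, 31 and 37.4 CPM in F0 and 8.9, 15.1 and 24.6 CPM in F1 (-0.92 ± 0.21, adjusted p = 0.00998). Of 41 lysosomal genes tested, 2 rose and 2 fell (4.88% each), below the shares over all genes. The cathepsin *ctsla* read 194, 243 and 271 CPM in F0 and 316, 408 and 517 CPM in F1 (0.80 ± 0.14, adjusted p = 0.00223). *naglu* rose too (0.76 ± 0.22), while *ctss2.1* (-0.97 ± 0.30) and *npc2.1* fell. The call of *ctss2.1* was lost in 14 of 26 alternatives, and its fold change was -0.59 (adjusted p = 0.405) without F0 replicates 13 to 16. Proliferation genes were low, with 11 of 43 reaching the count minimum, and the cell cycle inhibitor *cdkn1a* was the single DEG (-1.33 ± 0.39, adjusted p = 0.0346). Its call was lost in 15 of 26 alternatives, and the fold change was -0.63 (adjusted p = 0.431) without F0 replicates 13 to 16. Of the transcripts used as references, *eef1a1l1* (-0.15 ± 0.092, adjusted p = 0.283) and *actb1* (-0.51 ± 0.26, adjusted p = 0.185) were not called, and *tuba1c* was at 0 to 0.244 CPM.

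**Figure D4:**
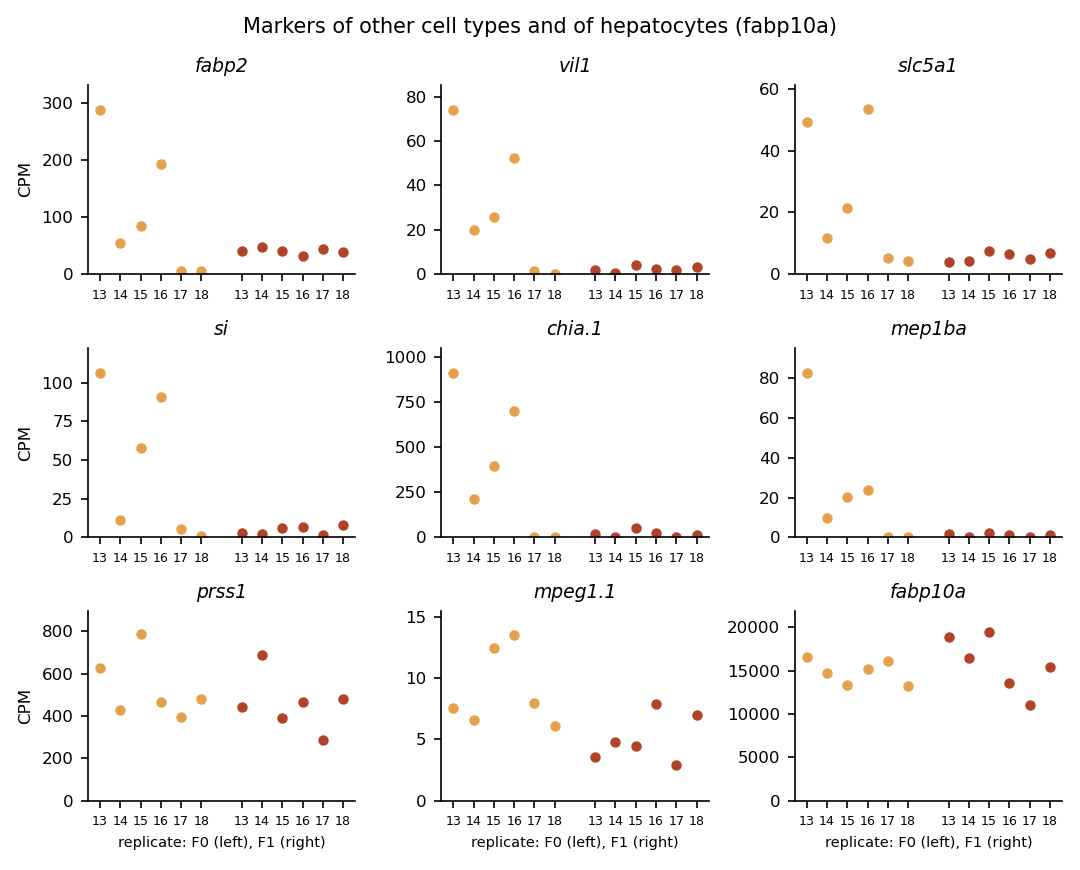
Level in CPM of 6 enterocyte markers, a pancreas marker (*prss1*), a macrophage marker (*mpeg1.1*) and a hepatocyte marker (*fabp10a*) in the 12 high ARA libraries, by replicate number. F0 replicates 13 to 16 stand above the other 8 libraries for all 6 enterocyte markers, while *prss1* and *fabp10a* overlap between generations.

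The levels of other cell types were measured beside these results. Of 17 enterocyte markers tested, 6 fell (*vil1*, *slc5a1*, *slc15a1a*, *anpepb.1*, *si* and *mep1ba*) and 2 rose, with a median of -2.07. The 2 increases, *apoa4b.1* and *apoa4b.2*, were above 100 CPM in all 12 libraries, as was *rbp2a*. The remaining 19 of the 22 markers summed to 726 to 3216 CPM in F0 replicates 13 to 16, 143 and 219 CPM in F0 replicates 18 and 17, and 198 to 383 CPM in F1. *fabp2*, the intestinal fatty acid binding protein, did not follow the split exactly: F0 replicates 17 and 18 (5.95 and 6.18 CPM) lay below all F1 libraries (31.8 to 47.1 CPM). Of 18 pancreas markers, 0 were called by edgeR or DESeq2 and 0 had an unadjusted p under 0.05. Without F0 replicates 13 to 16, leaving 2 F0 and 6 F1 libraries, 174 genes were called (58 higher and 116 lower), 161 of them among the 1806. Of the 1756 DEGs that could be fitted there, 1735 (98.8%) kept their direction, in libraries that are part of the full comparison. With the enterocyte score as a covariate, 518 rose and 512 fell.

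Exon length also moved with the direction. The median exon length was 3267 bases in the lower DEGs, 2329 in the higher DEGs and 2461 in all genes tested. Of the 2261 longest genes (4196 to 28500 bases) 84 were higher and 341 lower, against 244 and 151 of the 2260 genes of 2126 to 2864 bases. With an offset that removed the trend of each library on gene length, 798 rose and 749 fell. The median of the ribosome biogenesis factors was then 0.66, and that of the cytosolic ribosomal proteins -0.21. The part of transcript length in the other results was not tested further.

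In the control lineage, where parents and progeny ate the same diet, 200 of 10885 genes (1.84%) were DEGs between F1 and F0, 66 higher (0.606%) and 134 lower (1.23%). Gut markers were uneven here as well, at 2094 to 6453 CPM in F0 control replicates 7, 9 and 11 and 1095 to 1850 CPM in F1 control replicates 7 to 9, against 206 to 276 CPM in the other 6 libraries. The count was 80 to 218 with one library left out, and it moved by more than 1.5 times without F0 control replicate 9 (95) or F1 control replicate 8 (88), 9 (131), 10 (80) or 11 (108). Both lineages called 36 genes higher, which were 3.85% of the high ARA increases and 54.5% of the control increases. They called 67 genes lower, which were 7.69% and 50%. No gene was called in opposite directions. Of the high ARA increases with a value in the control lineage, 801 of 926 had the same sign there, and of the decreases 744 of 838, with median control changes of 0.21 and -0.35 against 0.64 and -0.82 in the high ARA lineage. *fdx1* (0.92 ± 0.16, adjusted p = 0.0131), *ttc27* (1.05 ± 0.20, adjusted p = 0.0158), *chdh* (-1.27 ± 0.29, adjusted p = 0.0354), *aco1* (-1.61 ± 0.29, adjusted p = 0.0136), *apof* (1.0 ± 0.18, adjusted p = 0.0144), *dgat2* (-1.0 ± 0.20, adjusted p = 0.0195), *hmox1a* (2.11 ± 0.41, adjusted p = 0.0273) and *c7b* (2.34 ± 0.52, adjusted p = 0.0422) were called in both. The control libraries had a median of 8721951 counts in F0 and 5668222 in F1, the reverse order of the high ARA lineage. A smaller number of calls in the control lineage does not show a smaller change, so the difference was tested itself.

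**Figure D5:**
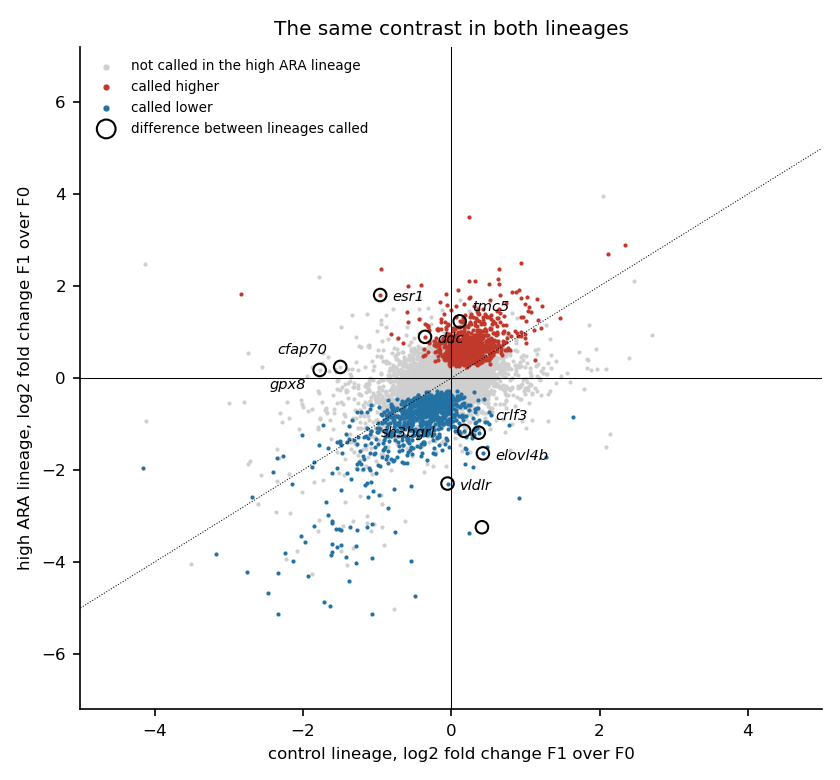
Log2 fold change of F1 over F0 in the high ARA lineage against that in the control lineage, one point per gene, with a dotted line of equality and 1 gene beyond the axes. Circles mark the 10 genes called in the test of the difference that could be fitted in both lineages, such as *esr1*, which lies at 1.81 and -0.96, and *vldlr*, at -2.29 and -0.050.

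Of 11136 genes, 12 (0.108%) had an F1 minus F0 change that differed between lineages, 7 more positive (0.0629%) and 5 more negative (0.0449%) in the high ARA lineage (edgeR). DESeq2 called 94. *esr1* had the difference 2.76 ± 0.52, adjusted p = 0.0418. Its control libraries read 2.2, 3.31 and 7.02 CPM in F0 and 1.04, 1.79 and 3.65 CPM in F1, with overlap. The control fold change was -0.96, of the opposite sign to that in the high ARA lineage, and was not called. By diet, *esr1* differed between high ARA and control by -1.07 ± 0.32, adjusted p = 0.481 in F0 and by 1.69 ± 0.38, adjusted p = 0.0369 in F1. *vldlr* differed between lineages by -2.25 ± 0.44, adjusted p = 0.0418. Control libraries of *vldlr* read 4.95, 8.17 and 12.4 CPM in F0 and 1.89, 8.57 and 13.1 CPM in F1, with full overlap, and F1 high ARA was the low group. *elovl4b* differed by -2.07 ± 0.41, adjusted p = 0.0418, its control libraries read 2.16, 4.49 and 6.2 CPM in F0 and 3.97, 5.45 and 7.94 CPM in F1, and the diet difference was 0.29 ± 0.29, adjusted p = 0.867 in F0 and -1.79 ± 0.26, adjusted p = 0.00465 in F1. These comparisons share libraries with one another.

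The other differences were of 2 kinds. *tmc5* (1.11 ± 0.22, adjusted p = 0.0418), *ddc*, the aromatic amino acid decarboxylase (1.24 ± 0.25, adjusted p = 0.045), *sh3bgrl* (-1.33 ± 0.25, adjusted p = 0.0418) and *crlf3* (-1.56 ± 0.32, adjusted p = 0.0475) changed in the high ARA lineage. For *ddc* the lowest mean was in F0 high ARA, at 14.2 CPM. Its means were 26.6 CPM in F1 high ARA, 26.2 CPM in F0 control and 20.6 CPM in F1 control. *sh3bgrl* read 20.1, 22.6 and 32.3 CPM in F0 and 9.62, 10.6 and 12.5 CPM in F1 in the high ARA lineage and 14, 26.7 and 34.3 CPM in F0 and 16.7, 31.4 and 33.8 CPM in F1 in the control lineage. *crlf3* read 16, 21.2 and 32.2 CPM in F0 and 6.02, 11 and 12.6 CPM in F1 and 12.2, 16.2 and 26.6 CPM in F0 and 17, 21.5 and 32.8 CPM in F1. *cfap70*, a ciliary protein gene (1.73 ± 0.29, adjusted p = 0.0196), and *ccdc90b* (3.17 ± 0.55, adjusted p = 0.0222), by contrast, were lower in F1 control than in the other groups. *cfap70* read 15.5, 19.8 and 27.8 CPM in F0 and 18.2, 24.5 and 32.6 CPM in F1 in the high ARA lineage and 18.8, 21 and 23.5 CPM in F0 and 4.25, 7.08 and 13.7 CPM in F1 in the control lineage. *gpx8* (1.94 ± 0.40) and zgc:162154 (5.83 ± 0.78), named after their values were seen, were likewise lowest in F1 control, zgc:162154 at 0 to 0.198 CPM against 0.574 to 3.51 CPM in F0 control. F1 control also had the lowest median number of counts per library of the 4 groups, and the part of depth was not tested. An unnamed gene on chromosome 14 read 1.14 to 4.53 CPM in F0 high ARA and 0 to 0.572 CPM in F1 high ARA, and differed between lineages by -3.66 ± 0.75. *apol* passed in the Ensembl counts alone (-2.51 ± 0.48, adjusted p = 0.0418).

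Chromosome 3 held 4 of the 12 genes (zgc:162154, *cfap70*, *tmc5* and *crlf3*) and 5.62% of the genes tested for the difference. Chromosome 14 held 2 of them, *sh3bgrl* and the unnamed gene, and the other 6 lay on chromosomes 8, 10, 16, 20, 21 and 23. In GRCz10 the 4 genes of chromosome 3 start at 9580750, 12036961, 26603291 and 35682532. Their placement was not tested. The count of 12 ranged from 2 to 16 with one library left out. It stayed at 8 to 16 without F0 control replicate 7, 8 or 12, F1 control replicate 7, F0 high ARA replicate 15 or F1 high ARA replicate 13 or 16, and was 2 to 7 without any of the other 17 libraries, while *cfap70* was called in each of its 36 alternatives. *esr1*, *vldlr* and *elovl4b* lost the call in 15, 22 and 17 of 36. For *tmc5*, *ddc*, *sh3bgrl* and *crlf3* it was lost in 21, 21, 18 and 22 of 36, and for *ccdc90b* in 6. With the pancreas score as a covariate 2 genes were left. The pancreas markers had a median log2 fold change of 1.08 in the control lineage and -0.10 in the high ARA lineage, and their part in these differences was not tested beyond that covariate.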

How the data were processed

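RNA-seq read counts per gene were deposited in 2 tables for the same 24 libraries. Per the file headers and labels, the authors checked reads with FastQC (0.11.5), aligned them with HISAT2 to GRCz10 and made the counts with featureCounts (1.5.0) for Ensembl (release 85) and RefSeq genes, without strand and without reads that matched several places or overlapping genes, although the kit kept strand. Overlapping genes and close paralogs are therefore uncertain. No normalization was applied before deposit. The 12 further count columns of each table belong to other samples and were not used, and the length column served only for exon lengths.

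The tables held 32105 Ensembl and 31084 RefSeq genes, and 24417 were paired by an exon overlap of at least 50% of bases. Gene names came from these tables and a RefSeq gene table used for names only. Genes averaging 10 or more counts per library were tested in R (4.3.3) with the quasi-likelihood test of edgeR (4.0.16, limma 3.58.1) and TMM factors. Fits used the 2 groups alone, or 24 libraries for the difference between lineages. A prior count of 2 entered log2 CPM values and not the tests. Those values served the marker scores, the surrogate variable, the gene length offset and the correlations between libraries. All p-values were adjusted over all genes tested (Benjamini-Hochberg), and a gene was called where Ensembl and RefSeq counts both gave an adjusted p under 0.05 and agreed in direction. CPM values and fold changes are from the Ensembl counts. Single values were also compared by an exact two-sided permutation test on log2(CPM + 0.5), with 924 assignments and a smallest p of 0.00216. The method was tested on simulated data.

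Named genes were the 10 per direction with the smallest p, the 5 with the largest fold at a mean of at least 5 CPM, up to 2 per direction and list, the 5 per direction with the smallest p between lineages, and genes the study named. Other list members, given by their fold change, were chosen after their values were seen. The members and the 35 gene lists were chosen with earlier results of these data known. Alternatives were RLE factors or library totals, other filters, DESeq2 (1.42.0), all 24 libraries in one fit, the replicate number as a block, 1 surrogate variable (sva 3.50.0), enterocyte or pancreas scores as covariates, each annotation alone and each library left out. A gene length offset, a join by symbol and the fit without F0 high ARA replicates 13 to 16 were added after seeing the data. The 66 pairs of the 12 libraries were compared by chi-square, which was at least 11.8 per degree of freedom. Replicates were tanks, so p-values measure the spread between tank pools. Promoter motifs were not analysed here. One gene is not reported here.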

Additional observations from a re-analysis of the deposited data

Results flagged for a closer look

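In 8 of 260 groups of libraries tested among the named genes, 1 library lay far from the other 5 by the gap relative to the range. Chance gives such a gap in about 1 in 20 groups. In F0 high ARA, replicate 18 was low for *ttc27* (6.57 CPM), replicate 14 was apart for *tmc5* (51.0 CPM), *sdf2* (3.47 CPM) and *crp3* (578 CPM), and replicate 15 for *gldc* (91.9 CPM). In F1 high ARA, replicate 18 was apart for *vldlr* (1.14 CPM) and *g6pc1a.1* (113 CPM), and replicate 13 for *ccdc90b* (1.03 CPM).

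In 12 genes the change from F0 to F1 differed between the lineages by the edgeR test of the difference itself, in 6 against 6 libraries of each lineage. The log2 difference, high ARA less control, was 5.83 for zgc:162154, 3.17 for *ccdc90b*, 2.76 for *esr1*, 1.94 for *gpx8*, 1.73 for *cfap70*, 1.24 for *ddc* and 1.11 for *tmc5*. It was -1.33 for *sh3bgrl*, -1.56 for *crlf3*, -2.07 for *elovl4b*, -2.25 for *vldlr* and -3.66 for the unnamed gene on chromosome 14 (ENSDARG00000100547). Of these, zgc:162154, *ccdc90b*, *gpx8* and the unnamed gene were low, at no more than 3.51, 2.94, 2.56 and 4.53 CPM in any library. The cause of each difference was not tested.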

How the results depend on the processing

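The 1806 DEGs became 838 with 1 surrogate variable, 1030 with the enterocyte score and 174 without F0 high ARA replicates 13 to 16, and 1219 to 1643 with one library left out. F0 and F1 libraries of the same replicate number were not alike in expression (correlations of -0.069 to 0.098, 1 of 6 best with its own number). Such correlations cannot show which tank descended from which. The replicate block gave 1354. Library totals gave 837 higher and 596 lower (58.4% higher against 51.8%) and moved the median of all genes to 0.056. The 12 differences between lineages became 94 with DESeq2, 21 with 1 surrogate variable, 19 with the enterocyte score and 2 with the pancreas score, and 2 to 16 with one library left out. The 200 control DEGs became 470 with DESeq2, 336 with 24 libraries in one fit, 31 with the pancreas score, and 80 to 218 with one library left out. With 1 surrogate variable the lists had 42 (ribosome biogenesis), 5 (RNA polymerases I and III), 4 (translation initiation) and 6 (mitochondrial ribosomal proteins) increases and 8 (clock) and 4 (P450) decreases. With the enterocyte score the polymerases had 7, initiation 7, mitochondrial ribosomal proteins 6, the clock 8 and P450 4. Without F0 replicates 13 to 16 ribosome biogenesis had 9, the clock 1, P450 1 and the polymerase, initiation, mitochondrial ribosomal protein and splicing lists 0. Library totals gave 7 mitochondrial ribosomal proteins and 7 P450 genes, and no count filter 7 P450 genes. With one library left out the ranges were 57 to 81, 7 to 13 (polymerases), 9 to 15 (initiation), 6 to 13 (mitochondrial ribosomal proteins), 19 to 24 (splicing), 10 to 13 (clock) and 6 to 15 (P450). Directions turned for *plac8.1* (0.11 with 1 surrogate variable, 0.0059 with the enterocyte score, 1.59 without F0 replicates 13 to 16), *cd36* (0.28, 0.48 and 3.06), *aldh1a2* (0.18 without those libraries) and *mbl2* (0.0051). With log2(CPM + 2) the exact permutation p of *mep1ba* (-2.003) and *clca1* (-1.73) passed 0.05, at 0.0498, and with log2(CPM + 0.1) that of *txnipb* (-2.41) did not, at 0.0584. The cause of these changes was not tested. Genes below the count minimum, such as *tuba1c*, could not be compared.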

Other observations

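Of 15 endothelial and stellate cell genes tested and 10 bile duct genes tested, 0 were called by edgeR, 1 of each was called lower by DESeq2, and 4 and 1 had an unadjusted p under 0.05 downwards. Their medians were -0.27 and -0.18, and 0.10 and -0.19 without F0 high ARA replicates 13 to 16. Of 10 erythrocyte genes tested 1 rose, with a median of 0.23, and their summed level was 199.0 to 304 CPM in F0 and 180.2 to 498 CPM in F1.

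The DEGs were spread over all 25 chromosomes. Chromosome 14 had the largest share of genes called (19.4% of 402) and chromosome 25 the smallest (12.4% of 339), against 16% of all genes tested. Low genes were called lower more often than higher: of the 2261 genes with a mean of 1.02 to 3.04 CPM, 58 were higher and 183 lower, while of the 2260 genes with a mean of 12.8 to 31.3 CPM, 291 were higher and 175 lower.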
